A study of Mus musculus with 80 samples.

Results

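*Arc*, *Npas4*, *Bdnf*, *Homer1* and *Nptx2* are genes that neurons switch on in response to synaptic activity. They were followed through every step by which microglia were isolated from mouse brain. Their values were picked out by gene symbol, and the set was chosen with earlier results of these data known. All 5 were listed in both deposited tables, among 15919 genes in the table of sort methods and 16000 genes in the table of cell preparations. The values come from 80 RNA-Seq libraries of Cx3cr1-NuTRAP mice (Cx3cr1(Jung)-cre/Ert2+;NuTRAP+), females and males given tamoxifen at 100 mg per kg at about 3 months of age. In these mice Cre under *Cx3cr1* control switches on a tagged ribosomal protein, so that translating ribosome affinity purification (TRAP) enriches RNA from Cx3cr1+ cells, which include macrophages besides microglia. Input is the lysate before that pull-down.

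The sort comparison holds Tissue (homogenised brain without dissociation), Cell (a papain-dissociated suspension), autoMACS (CD11b magnetic beads), autoMACS to Tyto, Tyto (cartridge-based sorting) and FACSAria (cytometer-based sorting). Tissue, Cell, autoMACS and FACSAria had 4 mice each, autoMACS to Tyto had 3, and Tyto had 5. The 3 mice of autoMACS to Tyto also supplied autoMACS, and Tyto and FACSAria had 3 mice in common. The cell preparation comparison holds Tissue, Dounce (cold mechanical dissociation), Cell (-) Inhib (warm enzymatic dissociation) and Cell (+) Inhib (the same with actinomycin D, triptolide and anisomycin), with 4 mice each. Tissue and Cell of the sort comparison came from the same 4 mice, which also supplied Tissue of the cell preparation comparison. Cell (-) Inhib and Cell (+) Inhib shared 4 other mice, and Dounce came from a further 4. Preparation and mouse can therefore not be told apart where Dounce or either suspension is set against Tissue in the cell preparation comparison.

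The 5 genes differ in role. *Npas4* encodes a neuron-restricted activity-dependent transcription factor, which pairs with ARNT or ARNT2 and acts on the promoters of other activity-regulated genes, *Bdnf* among them. *Bdnf* encodes a secreted neurotrophin that signals through the receptor TrkB (*Ntrk2*) and is transcribed from several alternative promoters. *Arc* encodes an immediate-early protein of dendrites that helps to remove AMPA receptors from synapses together with endophilin and dynamin. *Homer1* encodes a postsynaptic scaffold that links group 1 metabotropic glutamate receptors to SHANK proteins and IP3 receptors, and its short transcript, Homer1a, is the activity-induced form. *Nptx2* encodes a secreted pentraxin that clusters AMPA receptors with NPTX1 and the receptor NPTXR. Values per gene do not separate Homer1a from the long *Homer1* transcripts, nor the *Bdnf* promoters.

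Genes of this kind are known as targets of CREB, whose site holds the core TGACG. The stretches that hold it are shown so that the promoters of these genes can be compared. RefSeq promoters on GRCm38.p6 (the 250 bases before each start were searched on both strands) were listed for 3 of the 5 genes, and stretches of 30 bases around each core are printed below 5′ to 3′ on the gene's strand, with the core or its reverse complement in capitals.
Bdnf, chr2:109692388-109692417, + strand: atatgacagctcaCGTCAaggcagcgtgga
Homer1, chr13:93303696-93303725, + strand: caagcTGACGtgagcggagggTGACGtatg
Homer1, chr13:93303727-93303756, + strand: gcggagaggagcgcgcTGACGttgctattt
Npas4, chr19:4990129-4990158, - strand: ccgttcgaCGTCAcgggaTGACGtcggaag
*Bdnf* had 1 core, in 1 of its 7 promoters, beginning at position -35 from the first transcribed base. *Homer1* had 3, in 1 of its 2 promoters, beginning at -56, -40 and -14. *Npas4* had 2 in its 1 promoter, beginning at -179 and -169. Of all 32851 promoters in the table, 17.8% held at least 1 core and 3.9% held 2 or more. None of the promoters of these 3 genes held the full site TGACGTCA, which 1.55% of all promoters held. *Arc* (chr15:74669081-74672570, - strand) and *Nptx2* (chr5:144545887-144557478, + strand) are named without sequence.

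The summed count per library ranged from 7129464 to 20168116 in the sort comparison and from 2471448 to 14650287 in the cell preparation comparison, where the Dounce-TRAP libraries were the shallowest (2471448 to 4724538). Levels are given as CPM, the counts scaled to library size after TMM normalisation. A gene is called changed when edgeR's quasi-likelihood test gave it more than a 2-fold difference and a Benjamini-Hochberg false discovery rate (FDR) below 0.1 over all genes tested. Log2 fold changes carry a standard error derived from the fold change and the F statistic of that test. The replicates are mice, and p-values measure the spread between their libraries. In the main fits, libraries that share a mouse were entered as separate and not paired.

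In undissociated tissue all 5 genes were readily measured. *Arc* stood at 168, 109, 114 and 117 CPM in the 4 Tissue-Input libraries of the cell preparation comparison, and *Nptx2* at 74.8, 62.7, 61.9 and 93.9 CPM. *Homer1* stood at 78.2, 73.0, 76.5 and 91.1 CPM. *Bdnf* stood at 22.5, 26.8, 21.6 and 29.7 CPM, and *Npas4*, which neurons hold at a low level at rest, at 8.23, 11.9, 11.4 and 18.6 CPM. Per kilobase of annotated exon, the mean levels ordered as *Arc* 41.5, *Nptx2* 28.9, *Homer1* 6.66, *Bdnf* 4.05 and *Npas4* 3.03 CPM. The libraries of *Arc* and *Nptx2* overlapped on this scale, as did those of *Bdnf* and *Npas4*, while *Homer1* lay apart from both pairs. Mouse 946 gave the highest *Arc* level of the 4 mice in Tissue-Input and Tissue-TRAP of both comparisons (168 and 135 CPM, then 134 and 112 CPM).

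The 5 genes went different ways in Dounce-Input. For this preparation the paper reports the lowest RNA integrity and RNA yield of those compared. The part of RNA quality in the Dounce results, here and below, was not tested. *Npas4* and *Bdnf* were higher than in Tissue, *Arc* was lower, and *Homer1* and *Nptx2* did not pass the call. *Npas4* reached 48.1, 50.4, 38.7 and 36.1 CPM in the 4 Dounce-Input libraries, each above every Tissue-Input library (log2 fold change 2.01 ± 0.29, FDR = 3.4e-06). *Bdnf* stood at 33.4, 28.8, 51.4 and 62 CPM, and its lowest Dounce library lay just below the highest Tissue library. Its log2 fold change of 1.00 ± 0.25 (FDR = 0.0012) sat on the fold threshold, and it was called in only 4 of 12 alternative settings. Against these rises, 28.7% of all 15753 genes were called higher.

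*Arc* fell to 44.2, 62.7, 25.4 and 34.3 CPM in Dounce-Input, below all Tissue libraries (-1.38 ± 0.23, FDR = 1.8e-05), where 21.4% of genes were called lower. *Homer1* stood at 51.8, 55.5, 63.1 and 74.1 CPM, with 1 library inside the Tissue range (-0.18 ± 0.12, FDR = 0.19). *Nptx2* stood at 33.9, 39.9, 36.7 and 37.7 CPM, below the Tissue libraries but by less than 2-fold (-0.78 ± 0.20, FDR = 0.0017). The summed level of pan-neuronal markers, such as *Snap25* and *Syn1*, was lower in Dounce-Input than in Tissue-Input. It ranged from 12126.7 to 12846.6 CPM in Tissue-Input and from 3523.5 to 4022.4 CPM in Dounce-Input, over 13 of 14 listed markers, 11 of which were called lower (median log2 fold change -2.29, against 0.10 over all genes). In bulk RNA, fewer cells of a type and less RNA per cell cannot be told apart.

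**Figure D1:**
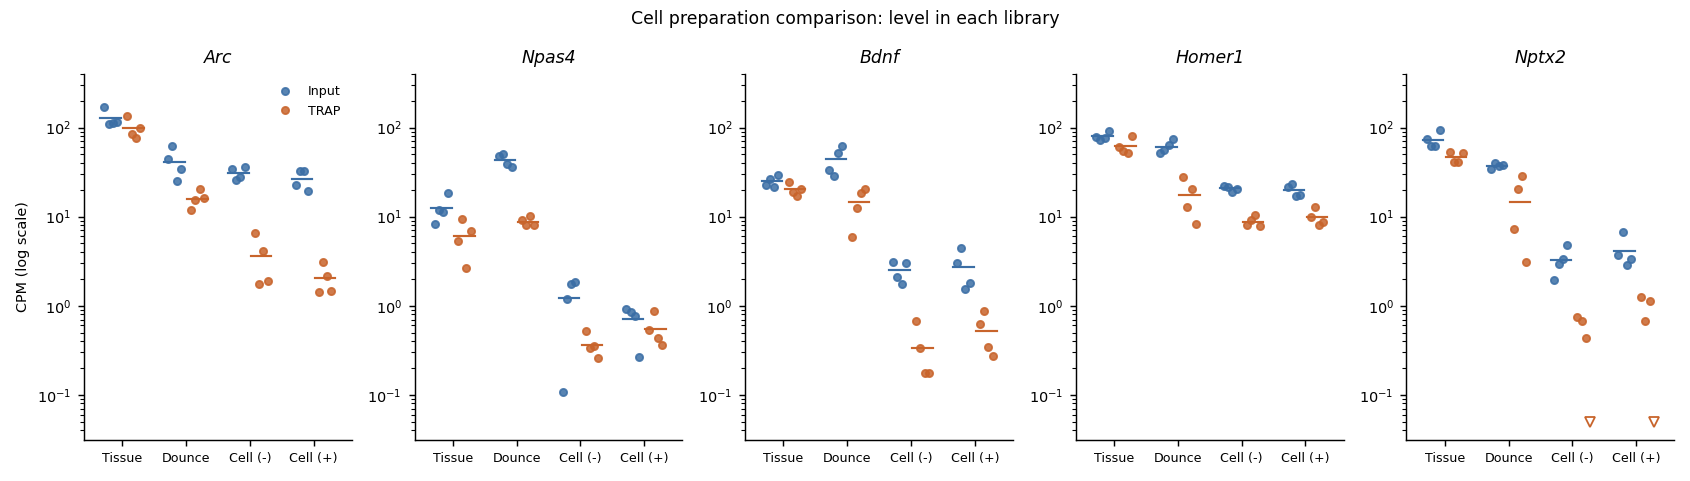
Level of each gene in the 32 libraries of the cell preparation comparison, in CPM on a log scale, by preparation, with Input in blue and TRAP in orange. Points are mice, bars are group means, and open triangles at the foot mark libraries with 0 counts, in groups drawn without a mean. *Npas4* in Dounce-Input (36.1 to 50.4 CPM) lies above its Tissue-Input libraries, and all 5 genes lie below Tissue in both enzymatic suspensions.

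All 5 genes were lower in the Input of the enzymatic suspensions than in Tissue, with and without inhibitors. *Nptx2* had the largest fall in Cell (-) Inhib, to 1.94, 2.91, 3.36 and 4.77 CPM (-4.62 ± 0.25, FDR = 5.2e-12). *Npas4* fell to 0.108, 1.2, 1.74 and 1.85 CPM (-3.47 ± 0.37), of which the lowest library, from mouse 156, held 1 count and the others 12, 15 and 19. *Bdnf* fell to 3.12, 2.11, 1.74 and 3.02 CPM (-3.46 ± 0.30). *Arc* and *Homer1* kept more of their level. *Arc* fell to 34.6, 25.6, 28.0 and 36.1 CPM (-2.17 ± 0.23) and *Homer1* to 22.2, 21.8, 18.9 and 20.6 CPM (-2.07 ± 0.13). No library of the suspension reached the Tissue range for any of the 5, and 19.1% of all genes were called lower.

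Cell (+) Inhib-Input lay below Tissue as well. *Arc* stood at 22.8, 32.4, 32.8 and 19.4 CPM (-2.39 ± 0.23) and *Homer1* at 21.3, 23.0, 17.1 and 17.5 CPM (-2.16 ± 0.13). *Npas4* stood at 0.919, 0.85, 0.768 and 0.269 CPM (-4.28 ± 0.40), *Bdnf* at 3.03, 4.44, 1.54 and 1.79 CPM (-3.36 ± 0.30), and *Nptx2* at 3.68, 6.70, 2.88 and 3.32 CPM (-4.29 ± 0.24). All 5 were called lower than in Tissue, against 20.2% of all genes. The pan-neuronal sum ranged from 663.7 to 1126.4 CPM in Cell (-) Inhib and from 573.1 to 1224.4 CPM in Cell (+) Inhib, with all 13 measured markers called lower than in Tissue in both (median -3.76 and -3.83).

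The inhibitors block transcription and translation during the warm step. The direct comparison of both suspensions asks whether the level of any of the 5 genes differed with them. It does not separate synthesis from decay of RNA, nor does it cover induction before the warm step, so an equal level does not settle whether a gene was induced. None was called in the Input, where 0.311% of all genes were called in either direction, and none had an unadjusted p under 0.05 in edgeR or in DESeq2. The log2 differences, with inhibitors against without, were -0.22 ± 0.23 for *Arc*, -0.81 ± 0.52 for *Npas4*, 0.10 ± 0.35 for *Bdnf*, -0.09 ± 0.13 for *Homer1* and 0.34 ± 0.27 for *Nptx2*. For *Homer1* and *Arc* the errors leave little room for a change of 2-fold, whereas for *Npas4*, with 1 to 19 counts per library, a change of that size was not detectable at this depth.

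Other activity-regulated genes were measured in the same libraries. Bulk Input RNA does not show which cells a change came from, and this was not tested. The paper places immediate early genes at the centre of its markers of microglial activation during cell preparation. Of 14 transcription factors, 10 rose and 2 fell in Cell (-) Inhib-Input against Tissue (median log2 fold change 2.34, against 0.05 over all genes, of which 25.6% were called higher and 19.1% lower). *Fos* rose most (5.08 ± 0.29), followed by *Klf4* (4.65 ± 0.27), while the factors that fell were *Egr4* (-4.22 ± 0.37) and *Nr4a2* (-1.07 ± 0.25). With inhibitors, 8 of the 14 were lower than without and none was higher (median -1.94, against 0.0006 over all genes). Of all genes, 0.311% were called lower and 0.00% higher there. The summed level of the 14 factors ranged from 2819.9 to 5420.7 CPM in Cell (-) Inhib and from 272.0 to 362.9 CPM in Cell (+) Inhib. The effectors, like the 5 genes described here, mostly fell. Of 15 other activity-regulated effectors, 10 fell and 1 rose in Cell (-) Inhib against Tissue (median -2.34). *Vgf*, a secreted neuropeptide precursor, fell by 5.47 and *Syt4*, a synaptotagmin, by 3.95 on the log2 scale, whereas *Dusp1*, a phosphatase of MAP kinases, rose by 3.79 and was the effector called lower with inhibitors.

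Among 24 partners of the 5 genes, 12 fell and 3 rose in Cell (-) Inhib-Input against Tissue (median -0.98). There 19.1% of all genes were called lower and 25.6% higher. None of the 24 partners was called between the suspensions, against 0.311% of all genes in either direction. *Nptxr* (-4.11 ± 0.22) and *Nptx1* (-3.79 ± 0.35), which work with *Nptx2*, fell most. *Dnm2*, a dynamin found in many cell types (1.51 ± 0.12), and *Ntrk2*, the BDNF receptor, which astrocytes also express (1.26 ± 0.23), rose most. In Dounce-Input 4 of the 24 partners rose and 6 fell, where 28.7% of all genes were called higher and 21.4% lower. *Arnt*, a partner of NPAS4, rose by 3.67 ± 0.11. Of the transcription factors 5 of 14 fell and none rose there.

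**Figure D2:**
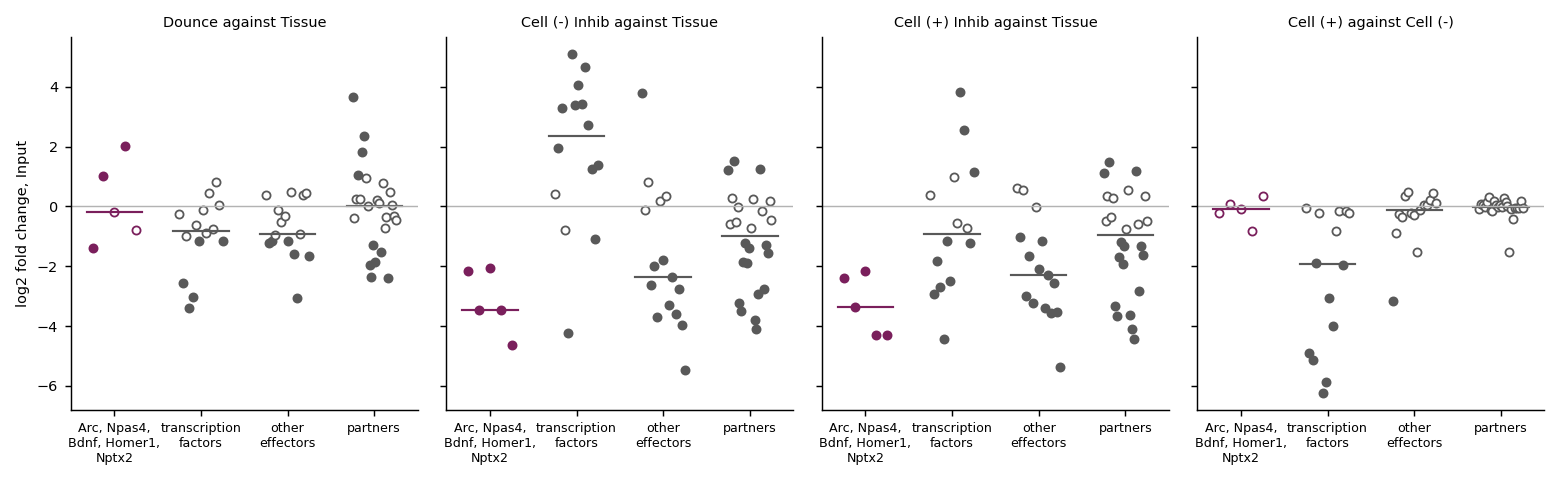
Log2 fold changes in the Input of the cell preparation comparison for the 5 genes (purple), 14 activity-regulated transcription factors, 15 other effectors and 24 partners (grey), in 4 comparisons. Each point is a gene, filled where called, and bars are medians. The median of the transcription factors was 2.34 in Cell (-) Inhib against Tissue and -1.94 with inhibitors against without. In the latter none of the 5 genes was called, against 0.311% of all genes in either direction.

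Because neuronal RNA itself was depleted, the counts were also set against the summed counts of 13 pan-neuronal and 10 excitatory markers in the same library (23 genes). Nearly all genes rise on this scale, so the background is high, with medians over all genes of 1.63 in Dounce and 3.97 in Cell (-) Inhib against Tissue. *Npas4* gave 4.43, 6.38, 6.27 and 9.70 counts per 10000 neuronal marker counts in Tissue-Input and 91.4, 88.7, 67.2 and 65.1 in Dounce-Input (3.54 ± 0.44, FDR = 8.6e-10). *Bdnf* gave 12.1, 14.4, 11.9 and 15.5 in Tissue and 63.5, 50.6, 89.1 and 111.9 in Dounce (2.55 ± 0.37, FDR = 3.2e-08). Both moved further than the median gene, and their Dounce libraries did not overlap the Tissue libraries.

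*Homer1* was called higher per neuronal count in Dounce as well (1.36 ± 0.30, FDR = 6.1e-05), but by less than the median gene. *Arc* (0.15 ± 0.29) and *Nptx2* (0.76 ± 0.34) were not called. In all, 3 of the 5 were called higher, against 66.3% of all genes. The markers themselves were spread on this scale, with 6 of the 13 pan-neuronal markers called lower and 1 higher in Dounce. With the excitatory or the pan-neuronal markers alone, or with any mouse left out, *Npas4* ranged from 3.39 to 3.78 and *Bdnf* from 2.33 to 2.71.

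In Cell (-) Inhib, *Arc* and *Homer1* were called higher per neuronal count (1.72 ± 0.30 and 1.86 ± 0.30), against 93.7% of all genes, and both lay below the median of all genes. *Arc* gave 58.3 to 90.5 counts per 10000 in Tissue-Input and 198 to 251 in Cell (-) Inhib-Input, and *Homer1* gave 39.2 to 47.5 and 113 to 214. The scale divides by neuronal markers whichever cells a gene's counts came from. *Homer1* also stood at 4.35 to 14.7 CPM in the sorted Input libraries. Which cells its counts in the suspensions came from was not tested. *Npas4* (0.43 ± 0.46), *Bdnf* (0.39 ± 0.37) and *Nptx2* (-0.74 ± 0.36) were not called. Their estimates lay within 2-fold of the neuronal markers, but the errors leave room for larger differences. *Npas4* gave 0.650 to 14.8 counts per 10000 in Cell (-) Inhib-Input, against 4.43 to 9.70 in Tissue-Input. In this comparison 3 of the 5 genes had an unadjusted p under 0.05 in edgeR. In Cell against Tissue of the sort comparison, whose Tissue libraries came from the same 4 mice, *Arc* (1.28 ± 0.28) and *Homer1* (1.44 ± 0.29) were called, against 92.4% of all genes and a median of 3.52, and the values were -0.08 ± 0.40, 0.43 ± 0.34 and -0.12 ± 0.31 for *Npas4*, *Bdnf* and *Nptx2*. Between the suspensions with and without inhibitors none of the 5 was called per neuronal count, against 0.279% of all genes, and none had an unadjusted p under 0.05 in edgeR, the tool used on this scale.

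**Figure D3:**
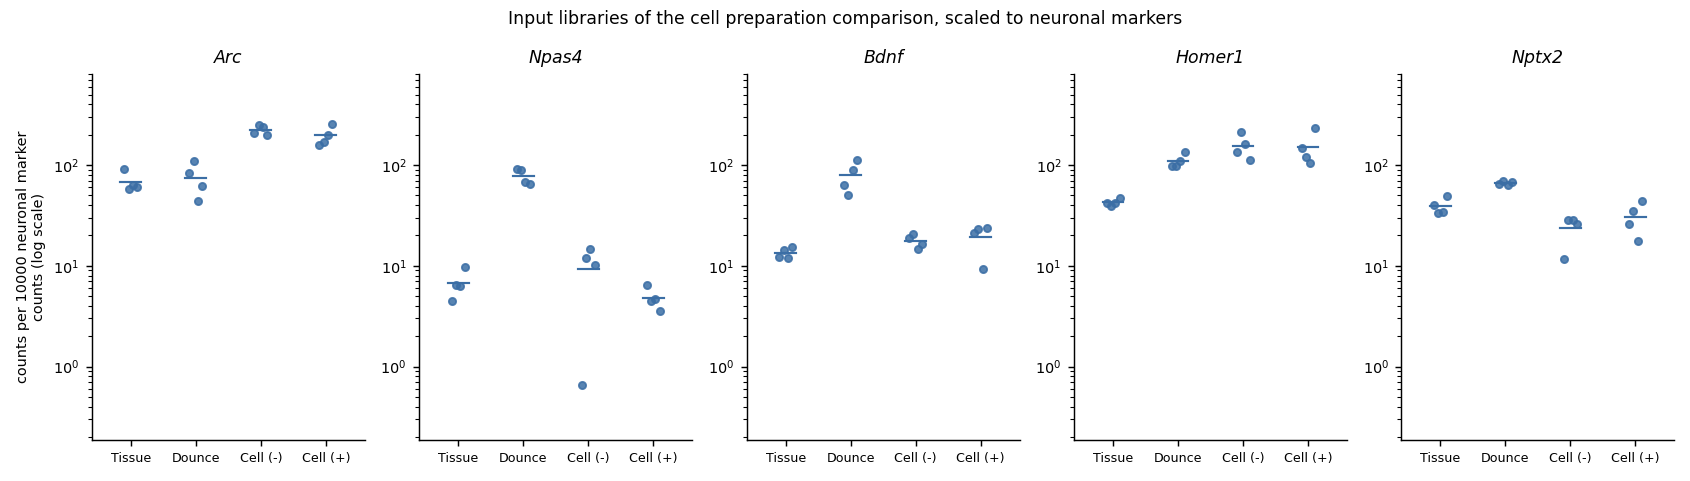
Counts of each gene per 10000 counts of neuronal markers in the 16 Input libraries of the cell preparation comparison, on a log scale. Points are mice and bars are means. *Npas4* and *Bdnf* in Dounce (65.1 to 91.4 and 50.6 to 111.9) lie above all other preparations, and *Arc* and *Homer1* are higher in both suspensions than in Tissue.

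In the TRAP fraction, 3 of the 5 genes were lower in Dounce than in Tissue. *Arc* went from 135, 84.6, 76.1 and 100.2 CPM to 12.0, 15.4, 20.6 and 16 CPM (-2.58 ± 0.32, FDR = 1.1e-06). *Homer1* went from 60.8, 55.1, 51.5 and 80.4 CPM to 27.6, 12.8, 20.6 and 8.33 CPM (-1.79 ± 0.27, FDR = 1.1e-05). *Nptx2* went from 53.5, 40.6, 40.9 and 51.4 CPM to 7.25, 20.4, 28.4 and 3.09 CPM (-1.62 ± 0.51, FDR = 0.0091), with the widest spread of the 5 genes between the Dounce mice. Of all 14723 genes, 27.1% were called lower.

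*Npas4* and *Bdnf*, which were higher in Dounce-Input, were not called in Dounce-TRAP. *Npas4* stood at 5.34, 9.39, 2.63 and 6.92 CPM in Tissue-TRAP and at 9.20, 8.0, 10.1 and 8.02 CPM in Dounce-TRAP (0.59 ± 0.38, FDR = 0.17). *Bdnf* stood at 24.6, 18.8, 17.1 and 20.7 CPM and at 5.85, 12.6, 18.6 and 20.7 CPM (-0.44 ± 0.36, FDR = 0.27). The pan-neuronal sum fell from between 9772.1 and 10969.6 CPM in Tissue-TRAP to between 1070.6 and 2009.0 CPM in Dounce-TRAP, with all 13 markers called lower.

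In the TRAP fraction of both enzymatic suspensions all 5 genes were called lower than in Tissue, against 30.8% of all genes without and 31.2% with inhibitors. *Nptx2*, *Bdnf* and *Npas4* had few counts, against a counting floor of 3 per library. *Nptx2* had 10, 8, 5 and 0 counts in Cell (-) Inhib-TRAP and 14, 7, 13 and 0 in Cell (+) Inhib-TRAP, and mouse 1362 gave both zeros, each of which allows up to 3 counts. *Bdnf* had 9, 4, 2 and 2 counts without and 7, 9, 4 and 3 with inhibitors, and *Npas4* had 7, 4, 4 and 3 without and 6, 9, 5 and 4 with. *Arc* and *Homer1* lay above the floor in every library. *Arc* had 88, 21, 47 and 22 counts without and 16, 32, 25 and 16 with inhibitors, and *Homer1* had 108, 109, 118 and 90 without and 111, 134, 94 and 97 with.

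The fitted log2 fold changes against Tissue-TRAP ran from -2.76 ± 0.27 for *Homer1* to -6.54 ± 0.68 for *Nptx2* without inhibitors, and from -2.59 ± 0.27 to -5.85 ± 0.65 for the same genes with them. *Arc* stood at -4.72 ± 0.35 without and -5.55 ± 0.37 with inhibitors. Between the suspensions none of the 5 was called in TRAP, against 0.638% of all genes in either direction. *Arc* alone had an unadjusted p under 0.05, in edgeR and in DESeq2, at 6.53, 1.75, 4.13 and 1.92 CPM without and 1.42, 3.08, 2.16 and 1.45 CPM with inhibitors (-0.83 ± 0.38, FDR = 0.53), and its libraries overlapped. Over the same TRAP libraries 9 of the 14 transcription factors were called lower with inhibitors (median -4.53, against -0.03 over all genes).

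**Figure D4:**
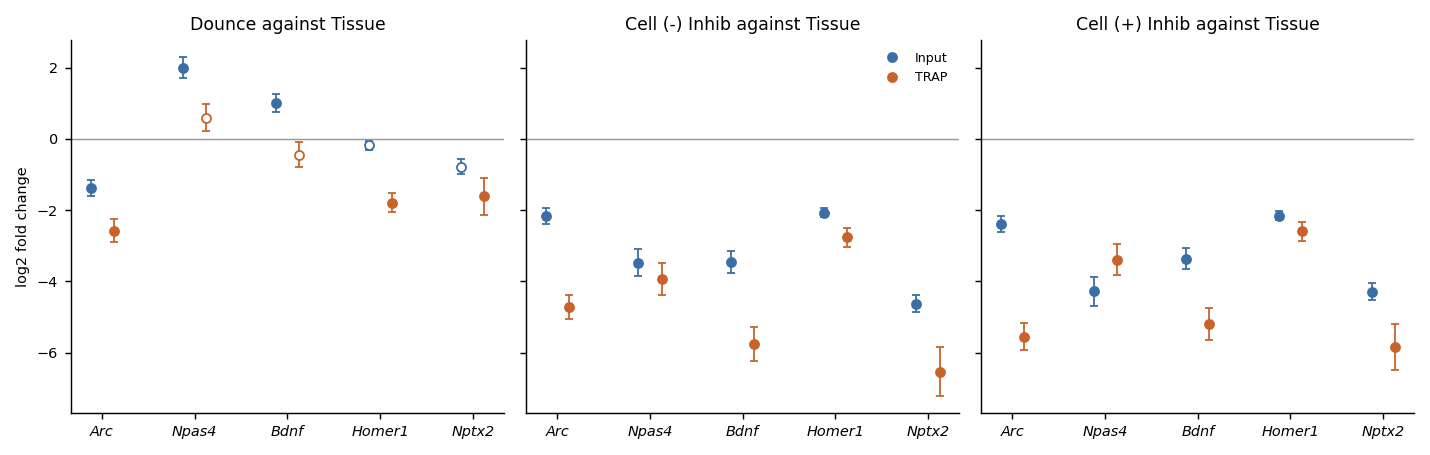
Log2 fold change of each gene against Tissue, with its standard error, in Input (blue) and TRAP (orange), for the 3 preparations of the cell preparation comparison. Filled points passed the call (more than 2-fold, FDR below 0.1). In Dounce the Input values run from -1.38 (*Arc*) to 2.01 (*Npas4*), and all 20 values of the suspensions lie below -2.

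The pull-down itself was compared within each preparation. In Tissue the differences were small. *Npas4* was called lower in TRAP than in Input (-1.04 ± 0.34, FDR = 0.021), against 2.33% of all genes, and the call was lost without Tissue replicate 3 (-0.84) or replicate 4 (-0.86). The other log2 differences ran from -0.31 ± 0.29 (*Bdnf*) to -0.65 ± 0.35 (*Nptx2*). In Tissue of the sort comparison none of the 5 was called, against 11.1% of all genes in either direction. None had an unadjusted p under 0.05 there in edgeR with all groups in the fit, and 2 had in DESeq2, which called none. Within mice the shift went one way, and each of the 5 genes was lower in TRAP than in Input of the same mouse in 4 of 4 mice. With the mouse as a block and the compared libraries alone, the edgeR FDR ran from 1.4e-05 (*Nptx2*, -0.60 ± 0.069) to 0.022 (*Bdnf*, -0.28 ± 0.091), so that the size of the difference, under 2-fold for every gene, kept all 5 from a call. In Tissue of the cell preparation comparison the block gave FDR values from 2.4e-05 (*Nptx2*) to 0.078 (*Bdnf*), and *Npas4* (-1.07 ± 0.24) was again the only gene past 2-fold.

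In the dissociated preparations most of the 5 genes were lower in TRAP than in Input. In Dounce all 5 were called lower in TRAP, from -1.34 ± 0.39 (*Nptx2*) to -2.30 ± 0.35 (*Npas4*), against 26.7% of all genes. In Cell (-) Inhib all 5 were called lower as well, against 36.8% of genes, from -1.24 ± 0.21 (*Homer1*) to -3.10 ± 0.31 (*Arc*). With the mouse as a block, on the compared libraries alone, 3 were called, since *Npas4* left the test under the count filter and *Homer1* was at -0.91. In Cell (+) Inhib, *Arc* (-3.73 ± 0.34), *Bdnf* (-2.34 ± 0.45) and *Nptx2* (-2.41 ± 0.54) were called, against 35.8% of genes, whereas *Homer1* missed the fold threshold (-0.99 ± 0.21) and *Npas4* stood at -0.35 ± 0.54.

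In Cell of the sort comparison *Arc* (-3.25 ± 0.33), *Bdnf* (-1.82 ± 0.46) and *Nptx2* (-2.32 ± 0.42) were called lower in TRAP, against 30.9% of all genes. *Npas4* was called too (-1.09 ± 0.59, FDR = 0.093), but not without Cell replicate 1 (-0.97) or replicate 4 (-0.76). *Homer1* stood at -0.71 ± 0.21 and passed the fold threshold when DESeq2 was used (-1.12). Between preparations, the summed level of 10 microglial markers in TRAP ranged from 9375.0 to 10745.4 CPM in Tissue and from 38100.8 to 44984.7 CPM in Dounce. These values do not compare TRAP with Input. The part of cell composition in the differences between TRAP and Input was not tested.

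The difference between the fractions in how far a gene moved was tested as an interaction, with Input and TRAP of a mouse unpaired. Against Tissue, Dounce lay further down in TRAP than in Input for *Arc* (-1.05 ± 0.40), *Npas4* (-1.26 ± 0.48), *Bdnf* (-1.31 ± 0.43) and *Homer1* (-1.46 ± 0.29), all called, against 18.2% of genes called lower. *Nptx2* was not called (-0.69 ± 0.52) except without Dounce replicate 3 (-1.35). The *Arc* call was lost without Dounce replicate 1 (-0.91) or 2 (-0.77), and the *Npas4* call without Tissue replicate 2 (-0.95).

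Cell (-) Inhib lay further down in TRAP for *Arc* (-2.74 ± 0.41), *Bdnf* (-2.49 ± 0.57) and *Nptx2* (-2.10 ± 0.70), against 35.7% of genes. *Homer1* (-0.88 ± 0.28, FDR = 0.010) stayed under the fold threshold except without Cell (-) Inhib replicate 3 (-1.01), and *Npas4* (-0.65 ± 0.61) was called only without Cell (-) Inhib replicate 1 (-1.25), the library with 1 count in Input. Cell against Tissue in the sort comparison gave *Arc* (-3.04 ± 0.42), *Bdnf* (-1.59 ± 0.59) and *Nptx2* (-1.77 ± 0.53), against 29.5% of genes, with -0.24 ± 0.72 for *Npas4* and -0.38 ± 0.29 for *Homer1*. For the inhibitors no interaction was called among the 5, against 0.145% of all genes, and none had an unadjusted p under 0.05 in edgeR or DESeq2.

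In the sort comparison all 5 genes were lower in Cell than in Tissue before any sort. In the Input *Arc* went from 134, 88.3, 81 and 92.3 CPM to 27.2, 26.8, 18.0 and 18.8 CPM (-2.03 ± 0.29). *Nptx2* went from 59.2, 50.6, 50.8 and 59.7 CPM to 8.32, 2.89, 4.02 and 4.12 CPM (-3.42 ± 0.34). *Npas4* (-3.36 ± 0.53), *Bdnf* (-2.88 ± 0.43) and *Homer1* (-1.90 ± 0.21) were called lower as well, against 17.5% of all genes. In TRAP all 5 were called lower, against 29.2% of genes, from -2.36 ± 0.20 (*Homer1*) to -5.27 ± 0.40 (*Nptx2*). Tissue and Cell came from the same 4 mice, which also gave Tissue of the cell preparation comparison, and the fits treat the groups as unpaired.

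After sorting, 4 of the 5 genes were close to the counting floor and *Homer1* was not. Over the 16 sorted Input libraries *Homer1* had 30 to 169 counts (median 118.5), at 4.35 to 14.7 CPM, and over the 16 sorted TRAP libraries 90 to 155 counts (median 115.5), at 5.62 to 13.9 CPM. Cell-Input stood at 20.4, 12.5, 14.5 and 18.5 CPM and Cell-TRAP at 12.4, 9.21, 9.59 and 9.18 CPM. The sorted mean was lower than Cell by less than 2-fold in Input (-0.84 ± 0.16, FDR = 4.4e-05), though past 2-fold with DESeq2 size factors (-1.05), and by -0.36 ± 0.16 (FDR = 0.061) in TRAP.

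*Arc* had 1 to 33 counts in the sorted Input libraries (median 6.5) and 0 to 12 in sorted TRAP (median 7.0). It was called lower than in Cell, where it had 379 to 502 counts in Input (-5.26 ± 0.26) and 19 to 46 in TRAP (-2.60 ± 0.33). *Npas4* had 0 counts in 11 of the 16 sorted Input libraries and at most 4 in the rest. *Nptx2* had 0 counts in 9 and at most 6, and *Bdnf* had 0 counts in 6 and at most 6. In sorted TRAP no library held more than 3 counts of *Npas4* or 2 of *Bdnf* or *Nptx2*, and 10, 9 and 13 of the 16 held none. These 3 genes were called lower than in Cell in both fractions. No fold is given for them, since 15, 10 and 15 of the 16 sorted Input libraries lay at or under 3 counts of *Npas4*, *Bdnf* and *Nptx2*, as did all 16 in TRAP. The 4 called genes compare with 34.6% of all genes called lower in Input and 23.5% in TRAP.

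The neuronal markers fell over the same step. Their pan-neuronal sum ranged from 635.7 to 1323 CPM in Cell-Input and from 15.1 to 61.2 CPM in the sorted Input libraries, and from 141.6 to 412.3 CPM in Cell-TRAP and 6.0 to 15.8 CPM in sorted TRAP. All 13 measured markers were called lower in each fraction, and none was at 0 in every sorted library. *Homer1* stood at 4.35 to 14.7 CPM where the 13 pan-neuronal markers together stood at 15.1 to 61.2 CPM. The microglial sum over the sorted libraries was 27015.9 to 47710.2 CPM in Input and 46104.2 to 55841.7 CPM in TRAP.

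**Figure D5:**
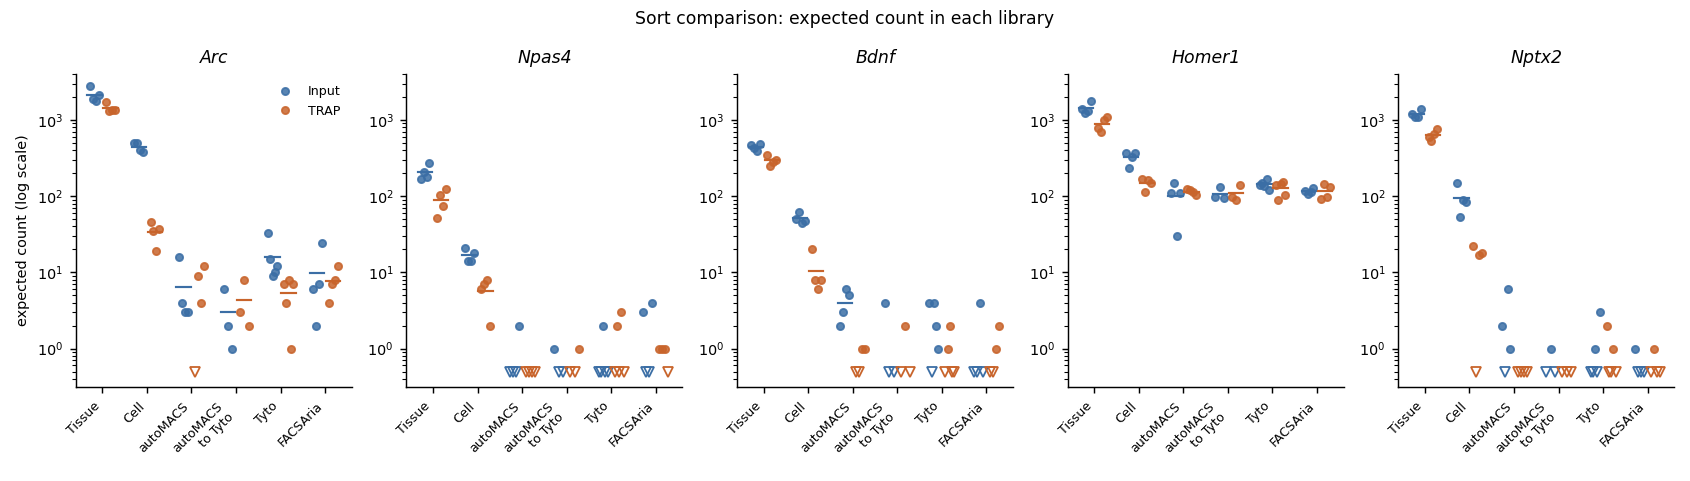
Expected count of each gene in the 48 libraries of the sort comparison, on a log scale, by preparation or sort, with Input in blue and TRAP in orange. Points are mice, bars are group means, and open triangles at the foot mark libraries with 0 counts, in groups drawn without a mean. *Homer1* keeps 30 to 169 counts in every sorted Input library, while *Npas4*, *Bdnf* and *Nptx2* hold at most 6.

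No difference between the 4 sort methods was called for these genes. An F test across the sorts, which does not use the mice they share, called none of the 5 in Input, against 7.44% of all genes, or in TRAP, against 4.18%, and none had an unadjusted p under 0.05 in either, with TMM or DESeq2 size factors in edgeR. *Arc* came closest in Input (edgeR FDR = 0.21), at 9 to 33 counts in Tyto, 2 to 24 in FACSAria, 3 to 16 in autoMACS and 1 to 6 in autoMACS to Tyto. Between libraries of the same mouse, *Arc* in Input was higher in autoMACS than in autoMACS to Tyto in 3 of 3 mice (1.21, 0.235 and 0.367 against 0.636, 0.171 and 0.131 CPM), on 3 to 16 against 1 to 6 counts. It was higher in Tyto than in FACSAria in 2 of 3 mice (1.43, 0.925 and 2.19 against 0.201, 0.657 and 2.38 CPM). These differences within mice were not tested. With counts this low a difference between sorts was not detectable for *Npas4*, *Bdnf* or *Nptx2*. Between TRAP and Input of the sorted cells only *Bdnf* was called lower (-1.86 ± 0.60, FDR = 0.0076), against 19.0% of all genes. It rests on 0 to 6 counts against 0 to 2, and was lost without autoMACS to Tyto replicate 1 (-0.66) or FACSAria replicate 3 (-0.95). Fitted on the sorted libraries alone, with or without the mouse as a block, *Bdnf* left the test under the count filter and 0 of the members still tested were called.

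Patterns over the 32 libraries of the cell preparation comparison were compared by Pearson's r of log2(CPM + 1), given as a description of libraries that share preparations. The genes most like *Arc* were *Dlgap3* (0.988), *Bai2* (0.986) and *D430019H16Rik* (0.982). *Bdnf* was most like *Efha2* (0.982), *Slc7a14* (0.981) and *Gls2* (0.981), and *Nptx2* most like *Tmem130* (0.981), *Slc12a5* (0.980) and *Caly* (0.980). For *Homer1* they were *Rin1* (0.967), *Ttc3* (0.966) and *Numbl* (0.962). *Npas4* was most like *C030023E24Rik* (0.974), *A330023F24Rik* (0.970) and *A230077H06Rik* (0.969), whose mean Dounce-Input levels of 56.2, 618 and 16.9 CPM compare with 9.42, 47.4 and 5.21 CPM in Tissue-Input. Within the 5 genes, *Bdnf* and *Nptx2* were most alike (0.930), and *Arc* and *Npas4* least (0.591).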

How the data were processed

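The authors sequenced stranded poly(A) libraries, processed the reads in Strand NGS on mm10, removed duplicate reads and kept a gene only if some group had all its libraries above 5 reads. The deposited values used here are the authors' expected counts per gene, 33.2% of them whole in the sort table and 20.8% in the cell preparation table. The deposited DESeq2-normalised values, comparisons and an earlier table were not used. Of the 80 count columns used, 56 matched a sample by its title and 24 by its accession.

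Counts were rounded to whole numbers and fitted in edgeR 4.0.16 (R 4.3.3; quasi-likelihood, TMM), with all groups of a fraction in 1 fit for comparisons of preparations and all libraries of a table in 1 fit for TRAP against Input. The same filter, above 5 counts throughout some group, was applied within each fit, and FDR is Benjamini-Hochberg over all of them. The scripts were tested on simulated data in which few genes changed, evenly up and down. In most comparisons here many genes changed, and scaling under such wide changes was not simulated. Alternatives were DESeq2 1.42.0, its size factors, no further filter, the compared groups alone, the mouse as a block, and leaving out each mouse. Summed counts per library ranged from 2471448 to 20168116, which limits precision most for genes under 10 counts, and floors of 3 counts cover counting error only.

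Sample titles give the mouse, so libraries of the same mouse can be matched. The main fits did not use this pairing, and the mouse entered only as a block in some alternatives. The interactions of fraction with Dounce and with Cell (-) Inhib against Tissue were not run with that block. Deviations from the group means of TRAP and Input of a mouse correlated with a median of 0.177 in the cell preparation comparison and 0.309 in the sort comparison. Of libraries of the same mouse in 2 preparations or sorts, the medians were 0.091 and 0.105.

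The 5 genes and all gene lists were chosen with earlier results of these data known. From each list the 2 genes called with the largest rise and the 2 with the largest fall in Cell (-) Inhib against Tissue are named, in Input and in TRAP, with the 3 genes most like each member. *Arnt* in Dounce-Input was named after its values were seen, and 1 list gene is not reported by name here.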

Additional observations from a re-analysis of the deposited data

Results flagged for a closer look

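Within groups of 4 or more mice, 3 of 77 sets of values held a library far from the others, and chance alone sets apart about 1 in 20 such sets. *Arc* in Tissue-Input of the cell preparation comparison stood at 168.4 CPM in replicate 1, against 108.7 to 116.5 CPM in the other mice. *Homer1* in Cell-TRAP of the sort comparison stood at 12.4 CPM in replicate 1, against 9.18 to 9.59 CPM. *Bdnf* in FACSAria-Input stood at 0.375 CPM in replicate 3, which is 4 counts, where the other mice had none.

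The change from Tissue to a dissociated preparation differed between TRAP and Input by the test of the difference itself for several genes. For Dounce the log2 differences, TRAP change minus Input change, were -1.05 for *Arc*, -1.26 for *Npas4*, -1.31 for *Bdnf* and -1.46 for *Homer1*. Here 18.2% of all genes were called lower, with a median of -0.20 over all genes. The *Arc* and *Npas4* calls were lost when some single mice were left out, as given above. For Cell (-) Inhib the differences were -2.74 for *Arc*, -2.49 for *Bdnf* and -2.10 for *Nptx2*, against 35.7% of all genes called lower and a median of -0.61. For Cell in the sort comparison they were -3.04 for *Arc*, -1.59 for *Bdnf* and -1.77 for *Nptx2*, against 29.5% of all genes called lower and a median of -0.29.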

How the results depend on the processing

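Of the counts of members called, those for preparations against Tissue kept within 1.5 times of the main count under every alternative run. Fitted on the compared groups alone, where the count filter leaves fewer members tested, sorts against Cell in TRAP gave 2 called, TRAP against Input gave 3 in Cell (-) Inhib and 0 in the sorted mean, and with the replicate block of the mouse the last 2 were also 3 and 0. The block ended or brought no other call count beyond 1.5 times. DESeq2's Wald test called 2 in TRAP against Input of the sorted mean, and leaving out mice gave 0 to 2 there and 0 to 1 in Tissue of the cell preparation comparison. Another scaling moved the median of all genes by at most -0.41, in TRAP against Input of Cell in the sort comparison. The depth limits *Npas4*, *Bdnf* and *Nptx2* in suspensions and sorted cells.

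Signs turned only for log2 values that were not called. With mice left out, *Bdnf* ranged from -0.25 to 0.29 between the inhibitor suspensions in Input, *Nptx2* from -0.31 to 0.85 in their interaction with fraction, and *Npas4* from -0.52 to 0.094 in the interaction of Cell with fraction. Per neuronal count, *Arc* ranged from -0.10 to 0.33 in Dounce, *Homer1* from -0.31 to 0.15 between the suspensions, and *Npas4* from -0.15 to 0.033 and *Nptx2* from -0.28 to 0.093 in Cell of the sort comparison. With the excitatory markers alone as the scale, the last 3 stood at 0.18 for *Homer1*, 0.13 for *Npas4* and 0.13 for *Nptx2*. The cause was not tested.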

Other observations

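The activity-regulated transcription factors rose in the TRAP fraction too. Of 14 factors, 8 rose and 3 fell in Cell (-) Inhib-TRAP against Tissue-TRAP (median log2 fold change 3.51, against -0.13 over all genes). In that comparison 22.3% of all genes were called higher and 30.8% lower. *Fos* rose by 7.31 ± 0.36 and *Egr2* by 5.94 ± 0.39, while *Egr4* (-4.76 ± 0.62) and *Nr4a2* (-2.35 ± 0.42) fell. In sorted TRAP against Cell-TRAP none of the 14 rose and 3 fell (median 0.13), against 0.823% of all genes called higher and 23.5% lower. Their summed level ranged from 7985.3 to 11834.9 CPM in Cell-TRAP.

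The other effectors and the partners mostly fell in TRAP. Of 15 effectors, 10 fell and 4 rose in Cell (-) Inhib-TRAP (median -4.43), where 30.8% of all genes were called lower and 22.3% higher. *Dusp1* rose by 6.41 ± 0.28 and *Ptgs2*, a prostaglandin synthase also made by immune cells, by 2.08 ± 0.50. *Vgf* (-6.68 ± 0.28) and *Pcsk1*, a prohormone convertase (-5.32 ± 0.80), fell most. Of 23 partners tested there, 16 fell and 2 rose (median -3.11). *Nptx1* (-7.04 ± 0.38) and *Grm5*, a glutamate receptor bound by HOMER1 (-5.63 ± 0.45), fell most, and the partners that rose were *Arnt* (2.24 ± 0.13) and *Dnm2* (1.93 ± 0.16).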
